A study of Mus musculus with 16 samples.

Results

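The genes described here are 9 members of the mammalian circadian clock and its outputs, measured in mouse liver: Arntl, Clock, Per1, Per2, Per3, Cry1, Nr1d1, Dbp and Rgs16. They were taken by symbol from a list of 10 genes, and each of the 9 was represented by 1 probe set among 19938 genes with a single-symbol probe set. Npas2, the other gene of the list, was not analysed here. The list was drawn up with earlier results of these arrays known, and Rgs16 is treated as selected on its diet difference in heterozygotes, since it was already known to be lower there on high-fat than on control diet. For that comparison the values of all 9 genes are therefore given as a description, without a test.

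The study measured transcripts in whole liver of adult mice with Affymetrix MoGene 1.0 ST arrays, 1 array per animal, and crossed a genotype with a diet. Gli2 is a transcription factor of the hedgehog pathway, and the heterozygotes carried a null allele of it. Each of the 4 groups held 4 animals after 12 weeks of diet: Gli2 heterozygotes on high-fat diet (Het_HFD), Gli2 heterozygotes on control diet (Het_control), wild type on high-fat diet (WT_HFD) and wild type on control diet (WT_control). In the labels of the wild-type animals the genotype reads as Gli1 wild type, while elsewhere the series refers to Gli2. No source used here states the strain, sex, exact age or hour of tissue collection. Because liver was taken whole, fewer cells of a type and less RNA per cell cannot be told apart.

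The clock of a cell is a feedback loop of transcription. The proteins of Arntl (also called Bmal1) and Clock bind E-box sequences together and switch on the Per and Cry genes, whose proteins accumulate and inhibit the Arntl-Clock pair. Nr1d1, also called Rev-erb alpha, is switched on by the same pair and represses Arntl, and Dbp carries the rhythm to other genes through D-box sequences. In liver the messages of Arntl and Clock run roughly opposite to those of the Per genes, Nr1d1 and Dbp over the day, so that a single collection time shows only 1 point of each cycle. Rgs16 speeds the GTP hydrolysis of G-protein alpha subunits and thereby shortens signalling from their receptors. Its message in mouse liver is known to cycle daily and to respond to feeding and fasting.

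Promoter sequence was looked up for the list in RefSeq (build GRCm38.p6), which gave 13 windows for 9 of the 10 genes, and Per2 had none. Each window holds the 250 bases before an annotated transcription start, read 5′ to 3′ on the strand of the gene. The windows shown are those of Cry1, Nr1d1 and Rgs16, whose levels are described first, and those of Per1 and Per3. The windows of Per1, Per3 and Cry1 hold clock motifs. Capitals mark the matches on either strand to the E-box CACGTG, the nuclear receptor half-site AGGTCA, and the D-box forms TTATGTAA and TTACGTAA. None of the capitals overlap each other.
Cry1 (chr10:85185055-85185304, minus strand): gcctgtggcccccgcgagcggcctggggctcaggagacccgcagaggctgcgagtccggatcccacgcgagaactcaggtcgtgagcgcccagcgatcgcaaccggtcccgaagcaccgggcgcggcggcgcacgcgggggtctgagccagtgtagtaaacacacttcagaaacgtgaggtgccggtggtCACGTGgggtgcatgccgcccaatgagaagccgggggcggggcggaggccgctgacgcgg
Per1 (chr11:69098699-69098948, plus strand): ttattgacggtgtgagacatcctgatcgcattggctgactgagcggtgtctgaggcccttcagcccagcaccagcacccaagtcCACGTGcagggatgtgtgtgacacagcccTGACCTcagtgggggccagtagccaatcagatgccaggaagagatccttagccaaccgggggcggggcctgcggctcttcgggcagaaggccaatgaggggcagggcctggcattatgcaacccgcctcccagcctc
Per3 (chr4:151044666-151044915, minus strand): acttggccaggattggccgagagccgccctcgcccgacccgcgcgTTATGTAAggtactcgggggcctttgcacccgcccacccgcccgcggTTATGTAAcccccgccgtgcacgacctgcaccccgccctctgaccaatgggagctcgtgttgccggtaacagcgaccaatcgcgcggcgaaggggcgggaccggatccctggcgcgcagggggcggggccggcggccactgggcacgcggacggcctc
Nr1d1 (chr11:98775378-98775627, minus strand): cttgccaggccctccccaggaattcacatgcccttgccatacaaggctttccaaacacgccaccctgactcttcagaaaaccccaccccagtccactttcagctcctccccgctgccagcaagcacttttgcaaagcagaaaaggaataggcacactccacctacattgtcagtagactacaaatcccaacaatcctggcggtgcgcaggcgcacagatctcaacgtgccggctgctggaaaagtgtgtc
Rgs16 (chr1:153740103-153740352, plus strand): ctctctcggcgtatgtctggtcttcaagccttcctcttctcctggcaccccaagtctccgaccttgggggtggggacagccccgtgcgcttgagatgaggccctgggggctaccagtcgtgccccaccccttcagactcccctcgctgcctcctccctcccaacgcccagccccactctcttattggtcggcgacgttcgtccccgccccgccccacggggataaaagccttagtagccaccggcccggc
The E-box of Cry1 lies 60 to 55 bases before the start, and that of Per1 166 to 161 bases before it. Per1 also has the half-site on the opposite strand, 137 to 132 bases before the start. Per3 has TTATGTAA at 205 to 198 and again at 158 to 151 bases before the start. Another window, of Clock, holds the half-site on the opposite strand, 119 to 114 bases before the start. Over 32851 mouse windows of the same length, the E-box is in 6.02%, AGGTCA in 14.0%, TTATGTAA in 0.819% and TTACGTAA in 0.113%. None of these letters occur in the windows searched for Arntl, Nr1d1, Dbp or Rgs16, which says only that they are absent from these bases.

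Levels are RMA values on the log2 scale, where RMA is a method that corrects, normalizes and summarizes probe intensities. A difference of 1 is a doubling, and differences are given with their standard error (SE). Tests come from limma, a linear model with a spread shared over all 16 arrays, and a gene is called at a Benjamini-Hochberg adjusted p under 0.05 over the 19938 genes. Het_control 2, animal 2 of its group, stood apart. Its correlation with the other arrays across genes was 0.961 to 0.979, and its interquartile range was 2.35, against 2.64 to 2.80 on the others. All comparisons include it, and some results that it moved are also given with it left out. The 9 measured hepatocyte markers of 10 listed averaged 13.45 to 13.72 over the 16 livers. The Gli2 probe set did not separate the genotypes: its level averaged 7.53 ± 0.07 in Het_HFD, 7.70 ± 0.30 in Het_control, 7.51 ± 0.08 in WT_HFD and 7.57 ± 0.02 in WT_control (SD, n = 4 each). Without Het_control 2 the Gli2 diet difference in heterozygotes was -0.02 instead of -0.17. The Gli2 genotype difference on control diet was then -0.01 instead of 0.13. Whether the Gli2 probes lie in the deleted part is not known here.

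In Gli2 heterozygotes, Rgs16 had 0.455 times the level on high-fat diet that it had on control diet, and the 8 clock genes differed by -0.37 (Nr1d1) to 0.21 (Per2, 0.12 without Het_control 2) on the log2 scale. Nr1d1, the repressor of Arntl, was lower in value on high-fat diet, while Cry1, an inhibitor of the Arntl-Clock pair, and Per3 were higher in value. In wild type the diet differences were 0.01 for Nr1d1, -0.03 for Cry1, 0.16 for Per3 and -0.18 for Rgs16, and none was called. After a repeated quantile normalization the wild-type value of Nr1d1 was -0.04 and that of Cry1 -0.02. The plot of levels by animal shows the 9 genes in the 4 groups.

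**Figure D1:**
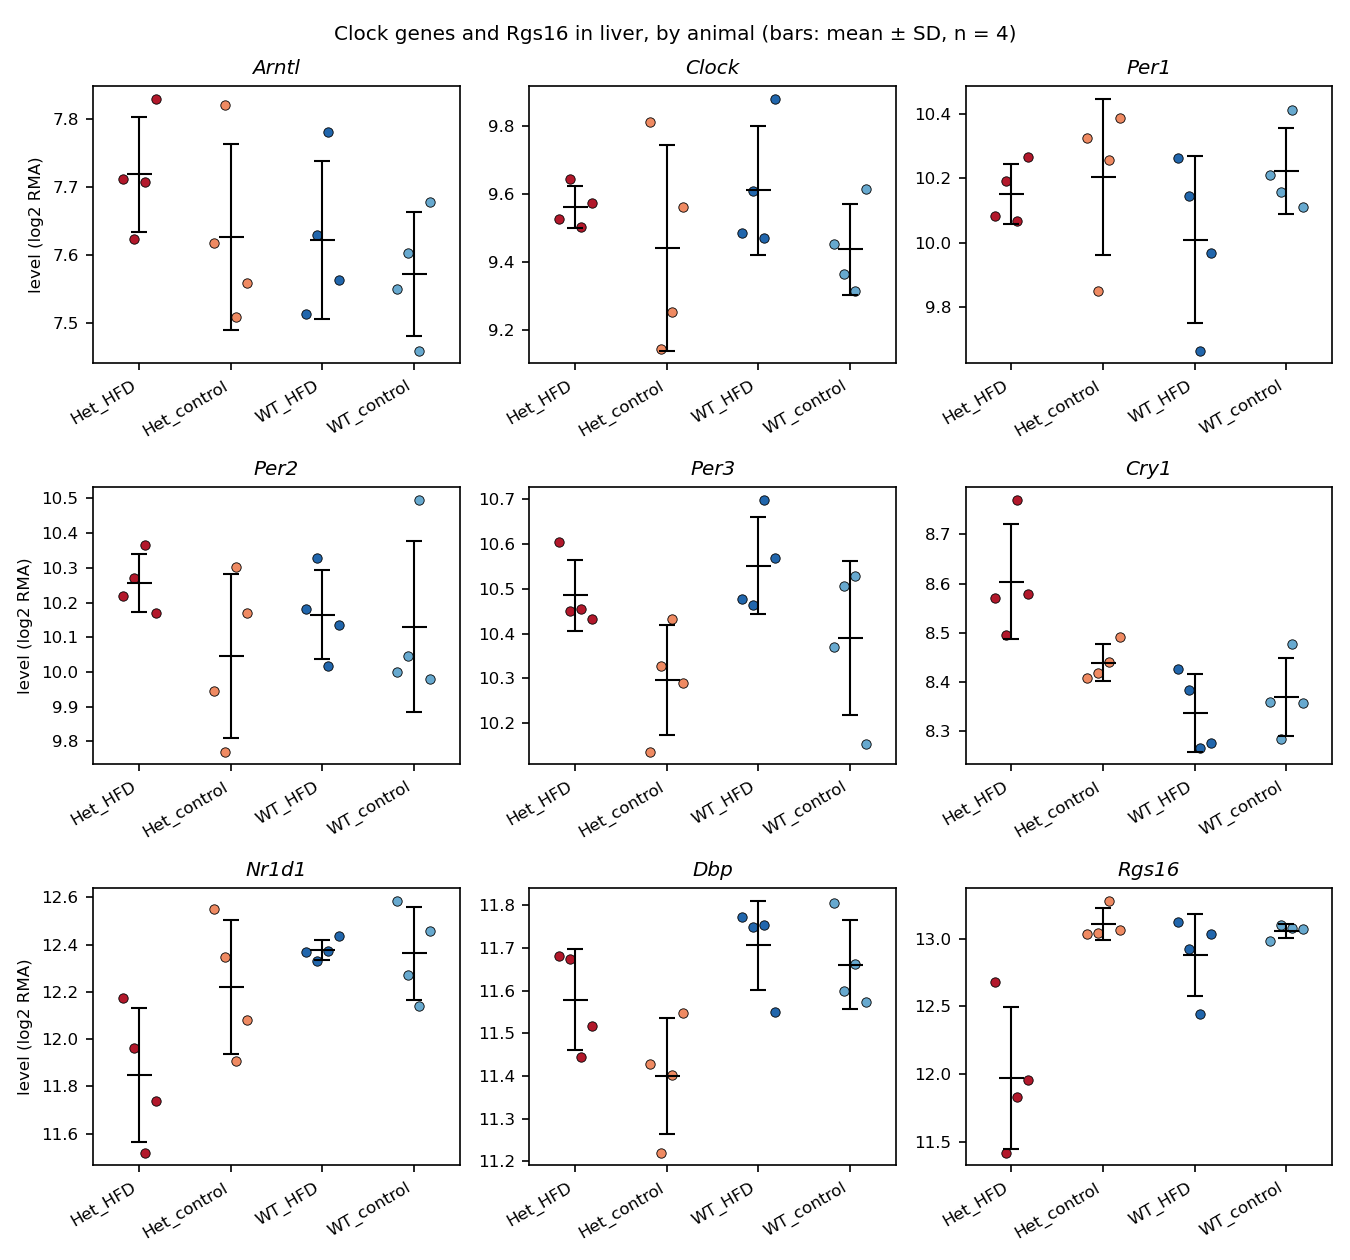
Level of each gene (log2 RMA, vertical axis, own range per panel) in the 16 animals, by group from left to right: Het_HFD, Het_control, WT_HFD and WT_control. Points are animals, and bars are the group mean ± SD (n = 4). The 4 Het_HFD animals lie below all Het_control animals for Rgs16 and above all others for Cry1.

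Rgs16 read 12.68, 11.42, 11.83 and 11.96 in the 4 Het_HFD animals, against 13.04, 13.04, 13.28 and 13.06 in Het_control. It read 13.13, 12.92, 12.44 and 13.04 in WT_HFD, against 12.99, 13.10, 13.08 and 13.07 in WT_control. Every Het_HFD animal was therefore below every Het_control animal, animal 1 of Het_HFD was the nearest to them, and WT_HFD 3 was the lowest wild-type animal. Het_HFD averaged 11.97 ± 0.53 and Het_control 13.11 ± 0.12 (SD, n = 4 each), a difference of -1.14 (SE 0.19). WT_HFD averaged 12.88 ± 0.30 and WT_control 13.06 ± 0.05, a difference of -0.18 (SE 0.19, 95% interval -0.58 to 0.23). That difference was not called by limma (adjusted p = 0.946). Without Het_control 2 the heterozygous difference was -1.16.

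Some marker lists of other cell types were separated by diet in the heterozygotes, and others were not. The mean level of the 10 macrophage markers, taken per animal, was 10.29 to 10.65 in Het_HFD, against 9.78 to 10.21 in Het_control. The 7 measured bile duct and gallbladder markers of 8 had means of 7.48 to 7.60 in Het_HFD, against 7.70 to 7.89 in Het_control. The 6 measured pancreas markers of 8 had means of 7.33 to 7.51 in Het_HFD, against 7.53 to 7.80 in Het_control. These ranges did not overlap, though the pancreas ranges nearly met, and of single genes 13.7% did not overlap here. The hepatocyte markers ranged from 13.63 to 13.72 in Het_HFD and from 13.45 to 13.71 in Het_control. The lymphocyte markers had means of 7.51 to 7.78 in Het_HFD, against 7.41 to 7.66 in Het_control. Like these 2 lists, the endothelial, stellate and adipose lists overlapped between the heterozygous diets. The ranges are not given without Het_control 2. No marker has a level of 0 on this scale, and the dimmest marker of these lists averaged 5.59 over all arrays. Between the wild-type diets the 8 measured lymphocyte markers of 10 had means of 7.30 to 7.39 in WT_HFD, against 7.55 to 7.64 in WT_control, also without overlap. The part of these markers in the Rgs16 values was not tested.

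The genotype comparison within the high-fat diet uses the same Het_HFD arrays, so its Rgs16 value is not independent of the choice of the gene. Het_HFD differed from WT_HFD by -0.91 (SE 0.19), which limma did not call over all genes (adjusted p = 0.628). The groups overlapped through Het_HFD 1 at 12.68 and WT_HFD 3 at 12.44. Without Het_HFD 1 the difference was -1.15 and was called (adjusted p = 0.00964). It was the 1 call among 23 alternative fits. Nothing is read from it, since that fit leaves out the Het_HFD animal with the highest Rgs16 level. On control diet Het_control exceeded WT_control by 0.05 (SE 0.19, adjusted p = 0.884). The diet by genotype interaction, which contains the heterozygous difference, was -0.96 (SE 0.27) and was not called (adjusted p = 0.380). The mean level of the same lymphocyte markers ranged from 7.51 to 7.78 in Het_HFD, against 7.30 to 7.39 in WT_HFD, and their part was not tested.

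Nr1d1 read 12.18, 11.96, 11.52 and 11.74 in Het_HFD, against 12.55, 12.35, 11.91 and 12.08 in Het_control. In WT_HFD it read 12.37, 12.33, 12.37 and 12.44, against 12.59, 12.27, 12.14 and 12.46 in WT_control. All Het_HFD animals were below all WT_HFD animals, while both diets of the heterozygotes overlapped. The SD was 0.28 in Het_HFD and 0.29 in Het_control, against 0.04 in WT_HFD and 0.20 in WT_control. Het_HFD differed from WT_HFD by -0.53 (SE 0.14), which was not called (adjusted p = 0.833). The diet difference was -0.37 (SE 0.14) in heterozygotes and 0.01 (SE 0.14, 95% interval -0.28 to 0.31) in wild type. The interaction of -0.39 (SE 0.20) was not called (adjusted p = 0.619).

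Cry1 read 8.57, 8.50, 8.77 and 8.58 in Het_HFD, against 8.41, 8.42, 8.44 and 8.49 in Het_control. It read 8.43, 8.38, 8.26 and 8.27 in WT_HFD, against 8.36, 8.28, 8.48 and 8.36 in WT_control. The 4 Het_HFD animals thus held the 4 highest Cry1 levels of the 16, and the margin to the nearest Het_control animal was small. Het_HFD exceeded WT_HFD by 0.27 (SE 0.07), which was not called (adjusted p = 0.693). The diet difference was 0.16 (SE 0.07) in heterozygotes and -0.03 (SE 0.07, 95% interval -0.17 to 0.11) in wild type. The interaction of 0.20 (SE 0.10) was not called (adjusted p = 0.615).

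Among the other inhibitors, the Per genes encode the partners of the Cry proteins. Per3 read 10.60, 10.45, 10.46 and 10.43 in Het_HFD, against 10.14, 10.33, 10.43 and 10.29 in Het_control. It read 10.48, 10.46, 10.70 and 10.57 in WT_HFD, against 10.37, 10.51, 10.53 and 10.15 in WT_control. The heterozygous groups came close without overlapping, and the wild-type groups overlapped. The diet difference of Per3 was 0.19 (SE 0.09) in heterozygotes and 0.16 (SE 0.09, adjusted p = 0.831) in wild type. After a repeated quantile normalization the heterozygous difference was 0.06. Per2 averaged 10.26 ± 0.08 in Het_HFD and 10.05 ± 0.24 in Het_control, and 10.17 ± 0.13 in WT_HFD and 10.13 ± 0.25 in WT_control. Per1 averaged 10.15 ± 0.09 in Het_HFD and 10.20 ± 0.24 in Het_control, and 10.01 ± 0.26 in WT_HFD and 10.22 ± 0.13 in WT_control. For both genes the animals of every pair of groups overlapped. Their wild-type diet differences were 0.03 (SE 0.12) for Per2 and -0.21 (SE 0.12) for Per1, with intervals of -0.22 to 0.29 and -0.48 to 0.05. In heterozygotes the diet difference of Per1 was -0.05, and -0.17 without Het_control 2. On control diet Per1 differed by -0.02 between genotypes, and by 0.10 without that animal.

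The groups were not separated by the activators Arntl and Clock, whose proteins form the pair that binds E-boxes. Arntl averaged 7.72 ± 0.08 in Het_HFD and 7.63 ± 0.14 in Het_control, and 7.62 ± 0.12 in WT_HFD and 7.57 ± 0.09 in WT_control. Clock averaged 9.56 ± 0.06 in Het_HFD and 9.44 ± 0.30 in Het_control, and 9.61 ± 0.19 in WT_HFD and 9.44 ± 0.13 in WT_control. The animals of all groups overlapped for both genes. In wild type the diet difference was 0.05 (SE 0.08, 95% interval -0.12 to 0.22) for Arntl and 0.17 (SE 0.12, 95% interval -0.09 to 0.44) for Clock. In heterozygotes it was 0.09 for Arntl and 0.12 for Clock. Without Het_control 2 these heterozygous values were 0.16 and 0.02.

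Dbp, a transcription factor that binds D-boxes, had no overlap between genotypes on control diet. It read 11.43, 11.22, 11.40 and 11.55 in Het_control, against 11.81, 11.60, 11.66 and 11.57 in WT_control. The difference of -0.26 (SE 0.08) was not called (adjusted p = 0.279), and was -0.20 without Het_control 2, the lowest of the 16 animals, and -0.15 after a repeated quantile normalization. The pancreas markers also did not overlap between these groups, with means of 7.53 to 7.80 in Het_control, against 7.45 to 7.50 in WT_control, and their part was not tested. On high-fat diet Dbp averaged 11.58 ± 0.12 in Het_HFD and 11.71 ± 0.10 in WT_HFD, and these groups overlapped. The diet difference was 0.18 (SE 0.08) in heterozygotes, 0.12 without Het_control 2 and 0.06 after a repeated quantile normalization. In wild type it was 0.05 (SE 0.08), and -0.01 after that normalization.

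**Figure D2:**
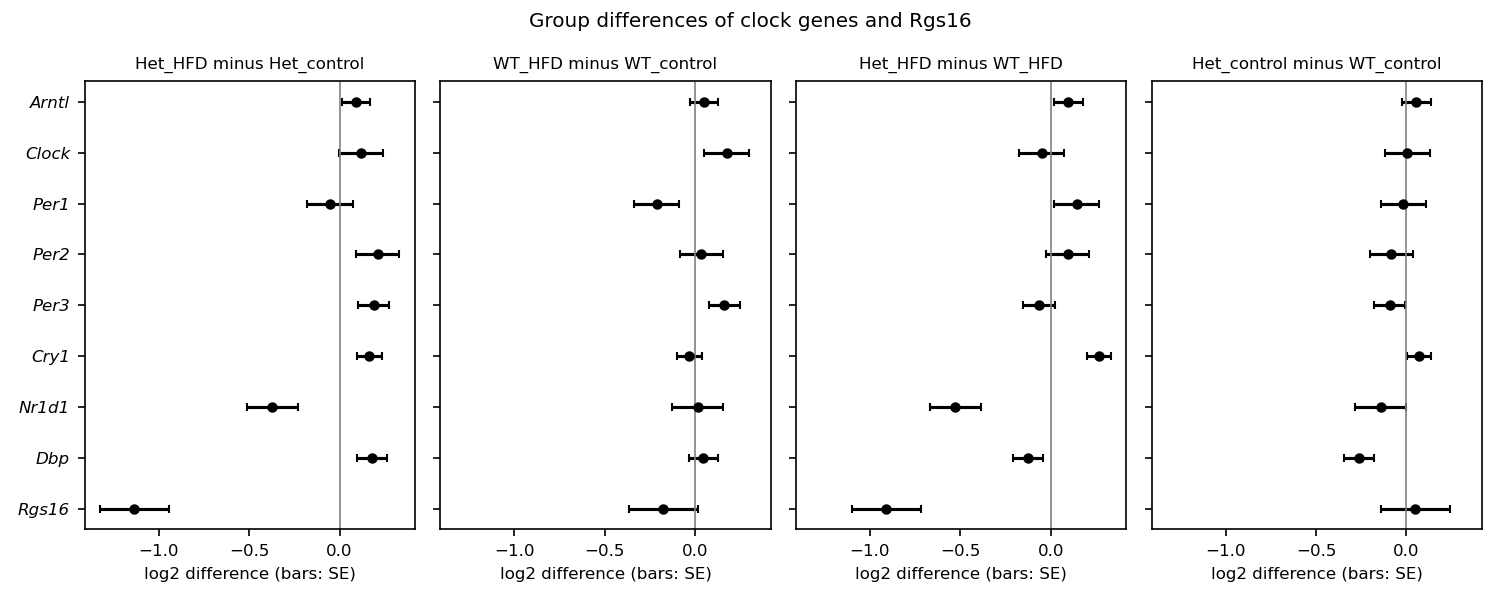
Log2 difference (horizontal axis) of the 9 genes in 4 comparisons, each with its SE (bars, limma). Rgs16 at -1.14 and -0.91 and Nr1d1 at -0.37 and -0.53 lie below 0 in both comparisons that hold Het_HFD, whereas the wild-type diet differences run from -0.21 to 0.17.

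Counted by comparison, 1 of the 9 genes (Rgs16) was called in the heterozygous diet contrast, where 2.22% of all genes were called, and nothing is read from that count because the contrast chose the gene. Per3, Cry1 and Rgs16 were the 3 members whose heterozygous diet groups did not overlap, against 13.7% of all genes. Nothing is read from this count either, because it includes Rgs16. In wild type limma called 0 of the 9 for diet, against 0% of all genes. At an unadjusted p under 0.05 it was 0 of the 9, against 6.43% of all genes, and no member had diet groups without overlap, against 8.50% of all genes. For diet averaged over genotypes, Rgs16 was again the 1 member called, with a difference of -0.66 (SE 0.13), against 1.86% of all genes. That contrast is in part the heterozygous one, so nothing is read from the call. It was lost without Het_HFD 3, Het_HFD 4, WT_HFD 3 or WT_control 1, 2 or 4, with an adjusted p of up to 0.0555. Per3 had an average diet difference of 0.18 (SE 0.06, adjusted p = 0.116), and of 0.09 after a repeated quantile normalization.

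Between genotypes limma called 0 of the 9 on high-fat diet, against 0.00502% of all genes, and 0 of the 9 on control diet, against 0% of all genes. At an unadjusted p under 0.05 these counts were 3 (Cry1, Nr1d1 and Rgs16), against 3.57% of all genes, and 1 (Dbp), against 15.7%. The high-fat contrast shares the Het_HFD arrays on which Rgs16 was chosen, so nothing is read from its count. Genotype groups without overlap were found for 2 members on high-fat diet, Cry1 higher and Nr1d1 lower, against 3.75% of all genes. On control diet they were found for 1 member, Dbp, against 6.12% of all genes. For the interaction 0 of the 9 were called, against 0% of all genes. Rgs16 was the 1 member with an unadjusted p under 0.05, against 8.13% of all genes. Nothing is read from this either, since the interaction contains the difference on which Rgs16 was chosen. The median difference of the members was 0.12 for diet in heterozygotes, where that of all genes was -0.05, and 0.03 for diet in wild type, where that of all genes was -0.01.

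Single animals differed more for some members than for others. The within-group SD was 0.31 for Rgs16, above that of 97.6% of all genes, and 0.22 for Nr1d1, above that of 91.5%. Clock, Per1 and Per2 had within-group SDs of 0.19 to 0.20, above those of 83.4% to 85.6% of all genes. Cry1 had 0.08 and Arntl 0.11, at percentiles 14.7 and 36.3, and the median over all genes was 0.13. The range over the 16 animals was 1.86 for Rgs16, with Het_HFD 2 lowest and Het_control 3 highest, and 1.07 for Nr1d1, with Het_HFD 3 lowest and WT_control 1 highest.

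Seen animal by animal, Het_HFD 3 combined the lowest Nr1d1 level of the 16 (0.68 under the mean), the highest Cry1 level (0.33 above it) and the second lowest Rgs16 level. Het_HFD 4 ranked next to it for Nr1d1 and Cry1. Het_HFD 2 had the lowest Rgs16 level, 1.34 under the mean, with Nr1d1 0.24 under its mean. Het_HFD 1 was near the mean for both, at -0.07 for Rgs16 and -0.03 for Nr1d1. The wild-type animal with the lowest Rgs16, WT_HFD 3, had the lowest Per1 and Cry1 levels and the highest Per3 level of the 16, and its Nr1d1 was 0.17 above the mean. Het_control 2 was lowest for Clock, Per2 and Dbp.

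**Figure D3:**
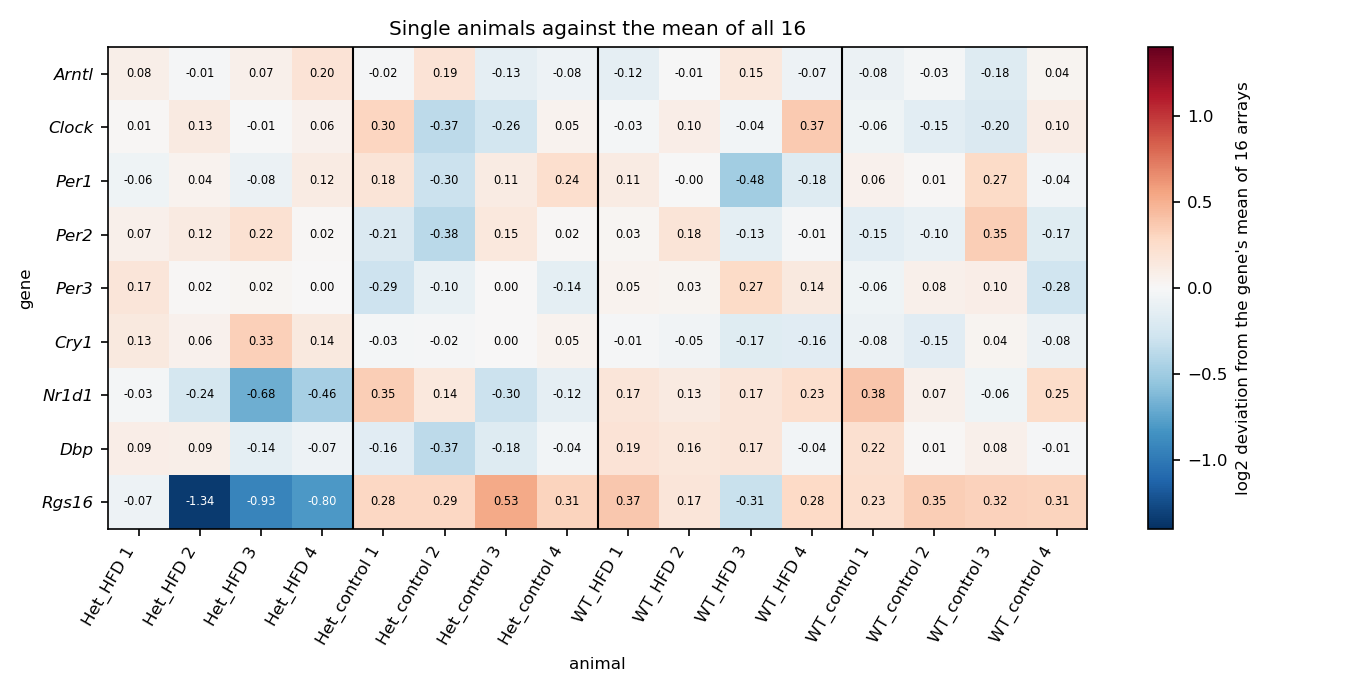
Deviation of each animal (columns, by group) from the mean of all 16 for each gene (rows), in log2 units, blue below and red above the mean. Het_HFD 2, 3 and 4 are at -1.34, -0.93 and -0.80 for Rgs16, and the Nr1d1 values of Het_HFD 3 and 4 are -0.68 and -0.46.

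To see whether the genes varied together between animals of a group, each value was centred on its group mean and the 36 pairs of members were correlated over the 16 arrays. Significance was taken from 100000 permutations within groups (two-sided). No pair passed after adjustment over the 36 pairs, the smallest adjusted p being 0.128, and 6 pairs had an unadjusted p under 0.05. Arntl and Per2 had r = -0.744 and rho = -0.762 (permutation p = 0.00361 and 0.00353, adjusted 0.128 and 0.127), and r = -0.636 without the 2 animals with the most extreme Arntl deviations. Arntl and Per1 had r = -0.750 and rho = -0.647 (permutation p = 0.0118 and 0.0218, adjusted 0.128 and 0.185), and r = -0.450 without Het_control 2 and WT_HFD 3. Leaving out Het_control 2 alone gave r = -0.644 for Arntl with Per2 and -0.611 for Arntl with Per1. Without WT_HFD 2 the Arntl and Per2 pair passed, with r = -0.784 (adjusted permutation p = 0.0198).

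The other 4 pairs were Per1 with Per2 (r = 0.633), Per2 with Nr1d1 (r = -0.653), Clock with Per3 (r = -0.604) and Per2 with Cry1 (r = 0.573), with adjusted permutation p of 0.128, 0.128, 0.161 and 0.128. Their rho was 0.671, -0.671, -0.597 and 0.526, with permutation p adjusted to 0.179, 0.179, 0.185 and 0.185. Without the 2 animals farthest from the median of the first gene, their r was 0.456, -0.494, -0.621 and 0.538. For Rgs16 with the clock genes r ranged from -0.210 with Arntl to 0.233 with Per1. Arntl and Nr1d1, gene and repressor, had r = 0.238 (adjusted permutation p = 0.728).

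**Figure D4:**
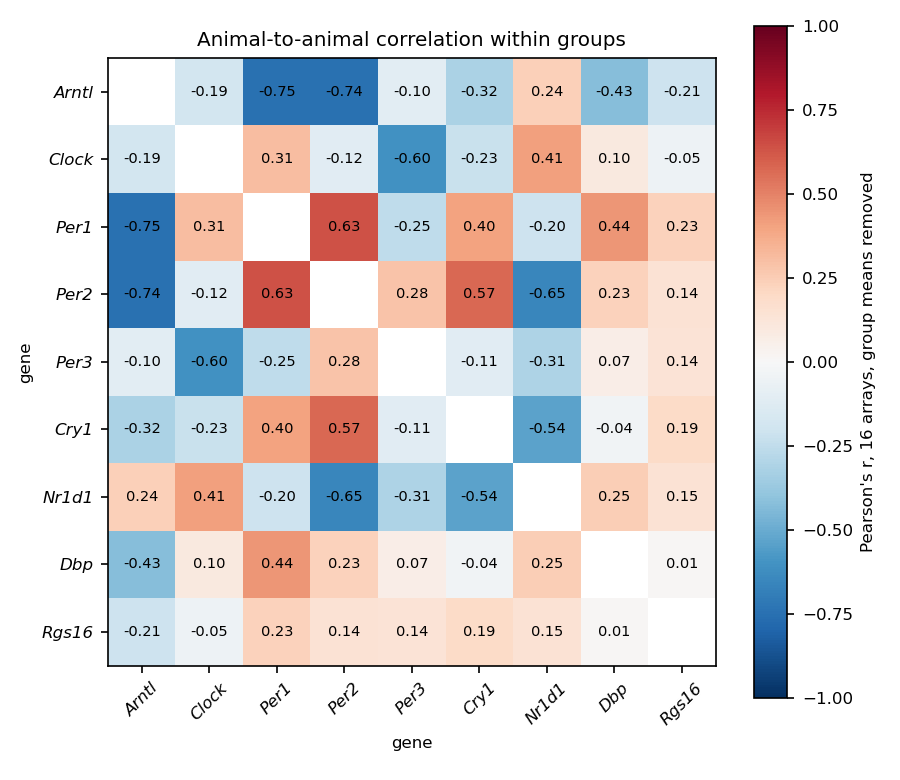
Pearson's r between the 9 genes over 16 arrays after removal of the group means (colour and number). The most negative cells are Arntl with Per1 (-0.75) and Arntl with Per2 (-0.74), and no pair passed after adjustment.

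The genes most like Arntl, Dbp and Rgs16 were sought by r over the 16 group-centred arrays among the 9969 genes at or above the median level. These values describe the arrays, which share RNA quality and processing between genes. For Rgs16 the closest were Eml1 (0.858), Cyyr1 (0.849), Slc49a4 (0.816), Npr3 (0.788) and Tpbgl (0.746). The most opposite to Rgs16 were S1pr5 (-0.861), Mtmr4 (-0.778), Slc1a4 (-0.746), Atp23 (-0.715) and Rny3 (-0.712). None of these 10 genes was on a clock list used here. The closest to Arntl were Slc39a5 (0.914), Tlr12, Ankrd33, Mir673 and Evx2 (0.816), and the most opposite Chd9 (-0.921), Rbm18, Cnot4, Atg13 and Golga1 (-0.871). The closest to Dbp were Erf (0.915), Ptbp1, Erich1, Lix1l and Zfp1 (0.905), and the most opposite Atxn1l (-0.863), Zfp839, Hes7, Tmem191c and 2610507B11Rik (-0.818).

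Of 16 further clock genes 14 were measured, and limma called 0 of them in each of the 6 contrasts, with 1 to 3 at an unadjusted p under 0.05. Their median diet difference was 0.09 in heterozygotes and 0.03 in wild type, where the medians of all genes were -0.05 and -0.01. The heterozygous median was 0.03 without Het_control 2 and -0.03 after a repeated quantile normalization. In the heterozygous diet contrast 3 of the 14 had an unadjusted p under 0.05, against 31.6% of all genes. There 13 of the 14 were higher in value on high-fat diet, but 9 of 14 without Het_control 2 and 5 of 14 after a repeated quantile normalization, and of all 19938 genes 8083 were higher. The smallest p-values were those of Bhlhe40, a repressor of the Arntl-Clock pair, with a difference of 0.39 (SE 0.13, adjusted p = 0.0832), and of Csnk1e, a kinase that phosphorylates the Per proteins, with 0.19 (SE 0.07, adjusted p = 0.0974). Without Het_control 2 these differences were 0.29 and 0.12. Both were called with the number in the sample title as a random block (adjusted p = 0.0152 and 0.0217) and without Het_control 4 (0.0255 and 0.0419). In that contrast the block called 6938 of all 19938 genes, and the fit without Het_control 4 called 3446. In wild type 2 had an unadjusted p under 0.05: Tef, a relative of Dbp, with 0.18 (SE 0.08, adjusted p = 0.747), and Cry2, the paralog of Cry1, with 0.16 (SE 0.07, adjusted p = 0.761). For diet averaged over genotypes Tef was called with array weights (adjusted p = 0.0282), with the block (0.0428) and without WT_control 3 (0.0497), and Cry2 with the block (0.0374). For averaged diet array weights called 2105 of all genes, and the block 3703. Nr1d2, the paralog of Nr1d1, differed by 0.07 (SE 0.08) in heterozygotes (-0.06 after a repeated quantile normalization) and 0.08 (SE 0.08) in wild type, and was picked as that paralog after its values were seen.

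Of 14 liver genes known for daily rhythms 11 were measured, and again limma called 0 in each contrast, with 1 to 4 at an unadjusted p under 0.05. Their median diet difference was 0.15 in heterozygotes and 0.02 in wild type, and the heterozygous median was 0.10 without Het_control 2. After a repeated quantile normalization the medians were 0.02 in heterozygotes and -0.02 in wild type. In heterozygotes 4 of the 11 had an unadjusted p under 0.05 for diet, against 31.6% of all genes, and 10 of the 11 were higher in value on high-fat diet, against 8 of 11 without Het_control 2 and 8 of 11 after a repeated quantile normalization. Wee1, a cell cycle kinase under clock control, averaged 10.37 ± 0.11 in Het_HFD and 9.72 ± 0.37 in Het_control, a difference of 0.64 (SE 0.18, adjusted p = 0.0602). It was called with array weights (adjusted p = 0.0324), with the block (0.00978), without Het_control 4 (0.0183) and without WT_HFD 4 (0.0450). Noct, a rhythmic phosphatase also called nocturnin, averaged 10.77 ± 0.30 in Het_HFD, 10.27 ± 0.37 in Het_control, 10.02 ± 0.23 in WT_HFD and 10.10 ± 0.18 in WT_control. Its differences were 0.50 (SE 0.17, adjusted p = 0.0915) for diet in heterozygotes and 0.76 (SE 0.17, adjusted p = 0.628) for genotype on high-fat diet, the first being called with the block (0.0183) and without Het_control 4 (0.0217). For diet in heterozygotes array weights called 1067 of all 19938 genes, the block 6938, and the fit without Het_control 4 called 3446.

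**Figure D5:**
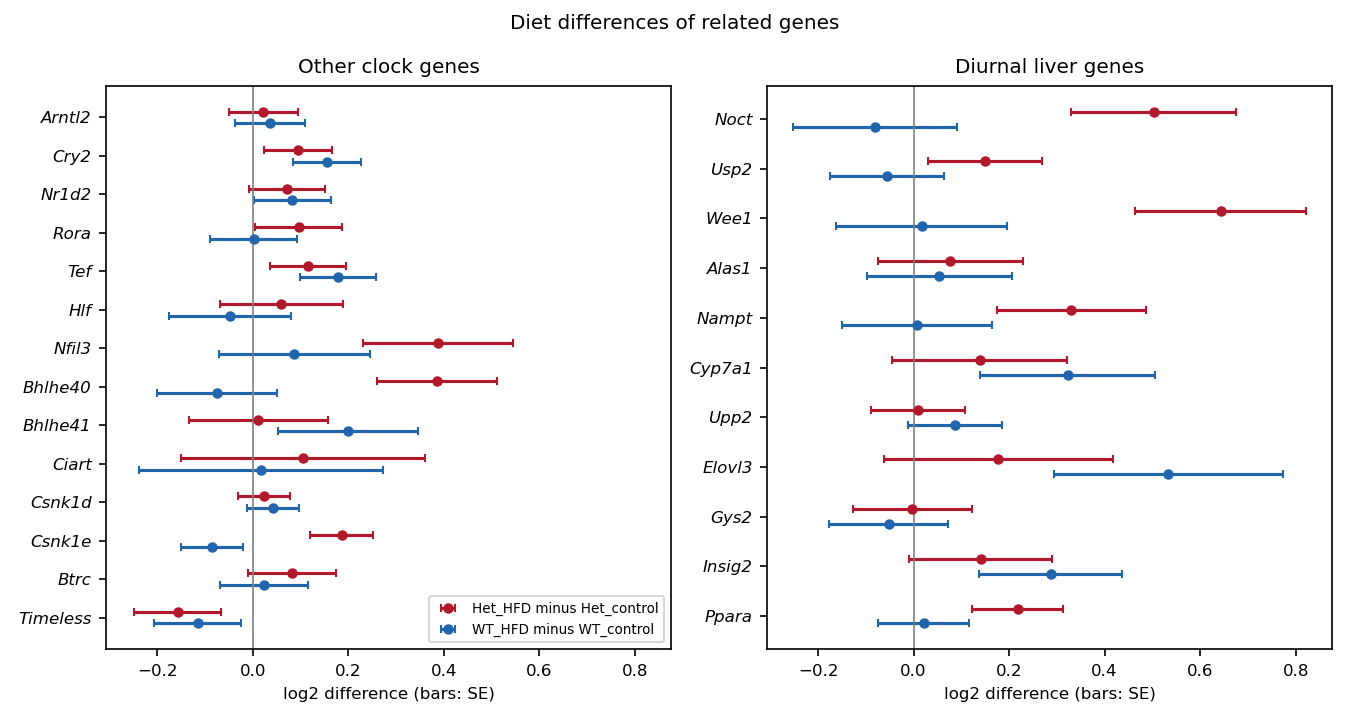
Log2 diet difference (horizontal axis, bars: SE) of 14 further clock genes (left) and 11 diurnal liver genes (right), in heterozygotes (red) and wild type (blue). No gene was called, and the 13 of 14 clock genes above 0 in heterozygotes became 9 of 14 without Het_control 2 and 5 of 14 after a repeated quantile normalization.

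Of 18 other RGS genes, which encode relatives of the Rgs16 protein, 17 were measured. Limma called 0 in each contrast, with 2 to 4 at an unadjusted p under 0.05, and their median diet difference was -0.08 in both genotypes. The heterozygous median was 0.0032 without Het_control 2, and after a repeated quantile normalization it was 0.07, with -0.04 in wild type. In the heterozygous diet contrast 3 of the 17 had an unadjusted p under 0.05, against 31.6% of all genes, and in the wild-type one 2, against 6.43%. Rgs2 had the smallest p in both, with opposite signs: 0.40 (SE 0.11, adjusted p = 0.0590) in heterozygotes and -0.31 (SE 0.11, adjusted p = 0.605) in wild type. It averaged 8.21 ± 0.23 in Het_HFD and 7.81 ± 0.21 in Het_control, and 7.85 ± 0.08 in WT_HFD and 8.16 ± 0.09 in WT_control. Neither pair overlapped, as was so for 13.7% of all genes between the heterozygous diets and 8.50% between the wild-type diets. The Rgs2 interaction of 0.71 was not called (adjusted p = 0.242). Rgs5 was next in heterozygotes, with 0.27 (SE 0.10, adjusted p = 0.105), and Rgs6 in wild type, with -0.13 (SE 0.06, adjusted p = 0.761). Rgs2 was called in heterozygotes with array weights (adjusted p = 0.0483), with the block (0.00717) and without Het_control 4 (0.0266), and in wild type with array weights (0.0423). Rgs5 was called in heterozygotes with the block (0.0228). For diet in heterozygotes array weights called 1067 of all 19938 genes, the block 6938, and the fit without Het_control 4 called 3446. For diet in wild type array weights called 219.

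Finally, 3 lists of signals known to reach the liver clock were examined: feeding and fasting, glucocorticoid hormone and body temperature. These lists were drawn up with earlier results of these arrays known, so nothing is read from the calls in them. Of 16 feeding and fasting genes 14 were measured, and in heterozygotes 9 of the 14 were lower in value on high-fat diet. Angptl4, an inhibitor of lipoprotein lipase, was the 1 called there, against 2.22% of all genes, with a difference of -0.53 (SE 0.13, adjusted p = 0.0494). That call was lost when any 1 array other than Het_control 4 or WT_HFD 2 was left out, with every probe set tested (adjusted p = 0.0506) and with only the arrays of the contrast (0.131). Igfbp1, an insulin-repressed binding protein, fell with diet averaged over genotypes, with -0.87 (adjusted p = 0.0152). In heterozygotes alone its difference was -0.77 (SE 0.23, adjusted p = 0.0680), called with array weights (0.0400), after a repeated quantile normalization (0.0431) and with the block (0.0178). There array weights called 1067 of all genes, the repeated normalization 1.86% and the block 6938. In wild type Igfbp1 had -0.97 (SE 0.23, adjusted p = 0.281). Pdk4, with the next smallest p of the list there, had -0.79 (SE 0.20, adjusted p = 0.326). Of 10 glucocorticoid-responsive genes 9 were measured. In heterozygotes 2 were called, both lower on high-fat diet, against 2.22% of all genes. At an unadjusted p under 0.05 there were 4 of the 9, against 31.6% of all genes. In value 5 of the 9 were higher, with a median difference of 0.10. Without Het_control 2 it was 4 of the 9, with a median of -0.15. Zbtb16, a zinc finger transcription factor, had a difference of -1.64 (SE 0.22, adjusted p = 0.00552), and Fkbp5, a cochaperone of the glucocorticoid receptor, one of -0.67 (SE 0.14, adjusted p = 0.0312). The Fkbp5 call was lost without Het_HFD 2, 3 or 4 or Het_control 3, and with only the arrays of the contrast (adjusted p = 0.0821). In wild type the same 2 genes had -0.26 (SE 0.22, adjusted p = 0.922) and 0.26 (SE 0.14, adjusted p = 0.821). For diet averaged over genotypes limma called Zbtb16, with -0.95 (SE 0.15, adjusted p = 0.0109), against 1.86% of all genes. Of 10 temperature-responsive genes 9 were measured, and 0 were called in heterozygotes by limma, with 3 of the 9 at an unadjusted p under 0.05, against 31.6% of all genes. Hspb1, a small heat shock protein, rose with diet averaged over genotypes, by 0.46 (adjusted p = 0.0278), a call lost in 8 of the 16 fits that left out 1 array (Het_HFD 1, 2 or 3, WT_HFD 1, 3 or 4, WT_control 1 or 2) and after a repeated quantile normalization. In wild type 0 genes of these 3 lists were called by limma, against 0% of all genes. At an unadjusted p under 0.05 there were 3 of 14, 1 of 9 and 3 of 9, against 6.43% of all genes. The 1 of 9 was Lcn2, with 0.72 (SE 0.25, adjusted p = 0.593). In the temperature list Hspb1 had 0.58 (SE 0.14, adjusted p = 0.321) and Hsph1 0.52 (SE 0.17, adjusted p = 0.524). Both were called with array weights (adjusted p = 0.0343 and 0.0460), which called 219 of all genes there.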

How the data were processed

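RNA from 16 mouse livers was hybridised to 1 array each. The deposited values are log2 expression levels per probe set, which the authors computed by RMA. The submitters' processing notes name Affymetrix Expression Console for this step, with no version or genome build. RMA normalizes the arrays toward a common intensity distribution, so a shift of all transcripts could be hidden. The deposited values still differed in distribution. Their interquartile range was 2.35 on Het_control 2, against 2.64 to 2.80 on the other arrays. Of 35556 probe sets, 21789 had 1 platform symbol. Symbols were updated through the Entrez number with RefSeq (19856 of 19938 genes matched), and the probe set with the highest mean stood for a gene. The 6 contrasts were fitted with limma 3.58.1 in R 4.3.3 (lmFit, eBayes, 1 mean per group, all 16 arrays), which was tested on simulated data. Precision is limited by having 4 arrays in each group. Correlations were permuted with numpy 2.4.6 in Python 3.11.15.

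The members and the gene lists were chosen with earlier results of these data known. Named are all members, each called gene of a list, and the 5 highest and 5 lowest correlates. Genes with the 2 smallest p-values of a list are named for some of the contrasts described. Nr1d2 was added after its values were seen. Marker lists for endothelial, stellate and adipose cells are mentioned only for diet in heterozygotes. Groups come from the genotype and diet labels, and replicate numbers follow record order and pair no animals. The sample titles hold 11 numbers of unstated meaning, 5 of them on more than 1 array, 0 in both genotypes and 1 in both diets. Animals that share one may not be independent.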

Additional observations from a re-analysis of the deposited data

Results flagged for a closer look

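Among the 36 sets of 4 animals (9 genes in 4 groups), 4 had a highest or lowest animal whose gap to the next exceeded Dixon's 95% critical value, and chance gives about 5% of sets. Rgs16 in Het_control 3 was the highest of its group at 13.2826. Per3 in Het_HFD 1 was the highest of its group at 10.6029. Per2 in WT_control 3 was the highest of its group at 10.4964, and Dbp in WT_HFD 4 the lowest of its group at 11.5495.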

How the results depend on the processing

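Rgs16 was selected on the heterozygous diet difference. Counts of members in that contrast, for averaged diet, for genotype on high-fat diet and for the interaction therefore describe the fits only. They support nothing. With only the arrays of the contrast, 0 members and 7 genes were called in heterozygotes, 6 genes in wild type and 2 for genotype on high-fat diet. When the number in the sample title was a random block, whose consensus correlation was -0.3723, 4 members were called in heterozygotes (Rgs16, Cry1, Nr1d1 and Dbp) and 2 for averaged diet (Rgs16 and Per3). That block called 6938 genes in heterozygotes, 40 in wild type, 3703 for averaged diet, 3 for genotype on high-fat diet, 2 for genotype on control diet and 2 for the interaction. Array weights called 1067 genes in heterozygotes, 219 in wild type, 2105 for averaged diet, 3 for genotype on high-fat diet and 1 for the interaction. The cause of these shifts was not tested.

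Leaving out each array in turn gave 45 to 3446 called genes for diet in heterozygotes (442 with all arrays, 174 without Het_control 2), 0 to 7 in wild type, 104 to 1754 for averaged diet (371 with all arrays, 712 without Het_control 2), 0 to 2 for genotype on high-fat diet, 0 to 18 on control diet and 0 to 0 for the interaction. It gave 1 to 1 called members in heterozygotes, 0 to 1 for averaged diet and for genotype on high-fat diet, 0 to 0 elsewhere, and 0 to 1 correlated pairs. Correlating values not centred on the group means gave 1 pair, Cry1 with Nr1d1 (r = -0.810, rho = -0.788, permutation p = 0.00011, and r = -0.571 without Het_HFD 3 and 4), which mixes group and animal differences. Over all alternatives the sign of a member's difference, Rgs16 included, changed in 1 of 206 values for diet in heterozygotes, 12 of 206 in wild type, 2 of 206 for genotype on high-fat diet, 16 of 206 on control diet, 11 of 197 for the interaction and 0 of 197 for averaged diet. Other probe sets per member gave no value, since each has 1. No paired analysis was possible because the replicate numbers only follow record order.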
